A study of Mus musculus with 7 samples.

Results

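Complement genes transcribed by the liver were examined for chromatin accessible to 3 nucleases. The genes were C3, Cfb, C4b, Mbl2, Masp1, Hc (complement C5), C8a, C8b and C9, which are 9 of 22365 protein-coding genes of the annotation. Every hotspot, a stretch where nuclease cuts cluster above background, was taken if it overlapped the gene body or the 20 kb on either side. These windows covered 685 kb and held 58 of 60910 Benzonase hotspots, 64 of 57675 Cyanase hotspots and 81 of 72286 DNase I hotspots. Hotspots that overlapped by at least 1 bp were merged into regions, which gave 93 of the 94491 regions of the series.

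All samples were liver of male C57BL/6 mice aged 8 weeks. Benzonase and Cyanase, endonucleases that tolerate detergents and so can digest unpurified tissue, were applied to pulverized frozen liver at 0.25, 1 and 4 U, and DNase I was applied to nuclei purified from fresh liver. GEO gives 3 samples for Benzonase, 3 for Cyanase and 1 for DNase I, while the header of the DNase I list names 2 pooled libraries. Each nuclease has 1 list of hotspot bounds without tag densities, made from pooled tags with the false discovery rate set to 0%. There is therefore no spread between replicates, the depth behind a hotspot is unknown, and a gene without a hotspot in a list is described as not called, not as closed. The nuclease, the fresh or frozen state of the tissue and the use of purified nuclei or whole tissue cannot be told apart. Whole liver also mixes cell types, and fewer cells of a type cannot be told apart from less accessible chromatin per cell.

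Complement is a cascade of plasma proteins that marks and destroys microbes. It starts through antibody (the classical pathway), through sugars on microbial surfaces (the lectin pathway) or by slow spontaneous activation of C3 (the alternative pathway), and the pathways meet at the cleavage of C3 and then of C5. The terminal proteins then assemble into a pore, the membrane attack complex. Hepatocytes make most of the circulating proteins, and many of these genes respond to inflammatory cytokines as part of the acute phase response.

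Selected promoters are shown first. That of Hc belongs to the only TSS (transcription start site) of the complement genes that a single nuclease marked. The others, of C3, Cfb, C8a and C9, are shown for a match to a motif, and every nuclease marked their TSS. The promoter of C8b also holds a match and is not shown. All promoters shown are on mm9 (NCBIM37), written 5′ to 3′ on the strand of the gene, and capitals mark the motif letters. The Hc promoter lies at chr2:34916959-34917208 on the minus strand, directly before the TSS. Its capitals are a TATAAA and, nearer the gene, an HNF1 half-site string in reverse complement.
Hc promoter: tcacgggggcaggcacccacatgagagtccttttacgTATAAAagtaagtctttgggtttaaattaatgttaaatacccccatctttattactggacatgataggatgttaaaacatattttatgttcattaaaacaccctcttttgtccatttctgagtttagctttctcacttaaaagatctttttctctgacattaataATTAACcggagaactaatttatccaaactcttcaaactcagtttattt
The C3 promoter lies at chr17:57367560-57367809 on the minus strand, directly before the TSS, and its capitals are a C/EBP match.
C3 promoter: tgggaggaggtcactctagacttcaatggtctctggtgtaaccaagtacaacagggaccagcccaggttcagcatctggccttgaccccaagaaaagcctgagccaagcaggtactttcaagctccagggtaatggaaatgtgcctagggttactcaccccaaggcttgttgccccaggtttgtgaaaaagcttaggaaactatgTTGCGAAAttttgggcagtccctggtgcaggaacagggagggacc
The Cfb promoter is shown from the nearest annotated start of Cfb back to the 3′ end of the neighbouring gene C2, 85 bases at chr17:34999464-34999548 on the minus strand, and its capitals are a STAT match.
Cfb promoter: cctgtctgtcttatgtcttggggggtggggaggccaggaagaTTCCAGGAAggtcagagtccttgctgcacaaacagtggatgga
The C8a promoter is shown for the 235 bases before its most upstream annotated start, at chr4:104549004-104549238 on the minus strand. Its capitals are a STAT match and then an HNF1 half-site string.
C8a promoter: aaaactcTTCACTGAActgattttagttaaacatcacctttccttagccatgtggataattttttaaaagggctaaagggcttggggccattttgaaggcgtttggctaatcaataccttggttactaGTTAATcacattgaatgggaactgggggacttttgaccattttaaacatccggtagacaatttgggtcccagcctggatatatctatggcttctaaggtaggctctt
The C9 promoter lies at chr15:6395077-6395326 on the plus strand, directly before the TSS, and its capitals are a C/EBP match.
C9 promoter: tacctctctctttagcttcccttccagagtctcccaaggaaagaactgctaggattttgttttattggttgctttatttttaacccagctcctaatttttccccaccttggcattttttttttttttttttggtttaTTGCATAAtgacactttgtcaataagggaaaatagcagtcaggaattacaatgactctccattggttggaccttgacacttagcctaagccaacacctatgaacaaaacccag

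The central 150 bases of the widest region called by DNase I alone and of the widest region called by Benzonase and Cyanase without DNase I show the 2 kinds of unique region. The first lies 3′ of C3 at chr17:57334804-57334953 and is 46.0% GC, and the second lies 5′ of C8a at chr4:104564511-104564660 and is 56.0% GC. Both are on the plus strand of mm9, outside annotated exons, and no letters are marked.
DNase I unique region 3′ of C3: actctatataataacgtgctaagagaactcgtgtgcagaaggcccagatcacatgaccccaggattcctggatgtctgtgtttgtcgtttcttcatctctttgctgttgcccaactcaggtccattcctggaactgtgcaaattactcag
Benzonase-Cyanase unique region 5′ of C8a: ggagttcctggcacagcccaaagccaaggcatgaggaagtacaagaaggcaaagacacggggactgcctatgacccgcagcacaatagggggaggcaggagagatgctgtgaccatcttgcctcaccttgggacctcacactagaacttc

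To ask whether the 3 nucleases mark the same complement promoters, a gene was scored when a TSS of at least 1 of its protein-coding transcripts lay inside a hotspot. All 3 nucleases marked 8 of the 9 genes, namely C3, Cfb, C4b, Mbl2, Masp1, C8a, C8b and C9, whereas 46.1% of all protein-coding genes were marked by all 3. Benzonase marked 8 of the 9 genes against 57.4% of all genes, Cyanase marked 8 against 55.7%, and DNase I marked 9 against 47.4%. Hc was the exception, with its TSS in a DNase I hotspot alone. Among all protein-coding genes, 194 (0.867%) had this pattern. The counts were unchanged with every annotated transcript, with hotspots up to 500 bp from a TSS, and without the narrowest hotspots of each list. The last 2 alternatives could not change them. The narrowest Benzonase, Cyanase and DNase I hotspots over these TSSs (639, 571 and 656 bp) exceed the width limits of 482, 489 and 537 bp. At Hc the nearest Benzonase and Cyanase hotspots lie 664 and 2003 bp from the TSS.

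At C3, whose product is the point where the pathways meet and is the most abundant complement protein of plasma, the 3 hotspots over the TSS had nearly the same bounds. The Benzonase hotspot ran from 57366849 to 57368149 on chromosome 17 (1301 bp), the Cyanase hotspot from 57366908 to 57368183 (1276 bp) and the DNase I hotspot from 57366946 to 57368207 (1262 bp). All 3 covered exon 1 and the C/EBP match shown above, which starts 45 bp before the TSS.

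At Cfb, which encodes factor B, the protease of the alternative pathway convertase, all 3 nucleases covered about the same stretch and the lists split it differently. The Benzonase hotspot was 1997 bp wide, from 34998001 to 34999997 on chromosome 17, and ended 1458 bp into the gene, and a second one followed to 2134 bp. The Cyanase hotspot (34998787 to 35000078, 1292 bp) and the DNase I hotspot (34998801 to 35000159, 1359 bp) ended 672 and 658 bp into the gene, and each was followed by 2 further hotspots of the same list, which reached 2108 and 2054 bp. The merged region of these hotspots reached from 34997325 to 35000159 and covered exons 1 to 6.

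C4b encodes C4, the thioester protein cleaved in both the classical and the lectin pathway. Its TSS lay in a Benzonase hotspot of 1284 bp (34880475 to 34881758 on chromosome 17), a Cyanase hotspot of 1290 bp (34880471 to 34881760) and a DNase I hotspot of 1347 bp (34880501 to 34881847). The bounds near the gene differed by at most 30 bp and most of each hotspot lay before the TSS. C4b has a near-identical copy, C4a, 65.2 kb away, and 31.4% of the 31-base stretches in the merged region over this TSS occur elsewhere in the genome, against 0 to 15.2% at the other 8 genes. How tags from such stretches entered the lists was not tested. The TSS of C4a was also marked by all 3 nucleases.

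Mbl2 encodes a mannose-binding lectin that recognises microbial sugars, and its TSS hotspots were the narrowest of the 8 genes in each list. They spanned 639 bp for Benzonase (30307060 to 30307698 on chromosome 19), 571 bp for Cyanase (30307091 to 30307661) and 656 bp for DNase I (30307081 to 30307736). Masp1 encodes a serine protease that works with mannose-binding lectins. Its TSS lay in a Benzonase hotspot of 1033 bp (23520077 to 23521109 on chromosome 16), a Cyanase hotspot of 1042 bp (23520088 to 23521129) and a DNase I hotspot of 1696 bp (23519408 to 23521103). The 3 bounds before the gene lay within 26 bp of each other, and the extra width of the DNase I hotspot lay in the first intron.

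Hc encodes C5, which is cleaved to the chemoattractant C5a and to C5b, the seed of the membrane attack complex. Its TSS, at 34916958 on chromosome 2, lay in a DNase I hotspot of 1046 bp that ran from 34916495 to 34917540. The nearest Benzonase hotspot (34915714 to 34916294) lay in the gene, 664 bp from the TSS and 200 bp from the DNase I hotspot. The nearest Cyanase hotspot (34918961 to 34919766) began 2003 bp before the TSS. Both of these neighbouring sites were also DNase I hotspots, and the first was not called by Cyanase. The Hc promoter had the lowest GC content of the 9, 32.8%, and 15.2% of the 31-base stretches in the region over its TSS occur elsewhere in the genome.

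C8a and C8b encode chains of C8, a pore component, and lie tail to tail on chromosome 4 with 11.1 kb between their 3′ ends. The TSS of C8a lay in a Benzonase hotspot of 932 bp (104548507 to 104549438), a Cyanase hotspot of 695 bp (104548700 to 104549394) and a DNase I hotspot of 792 bp (104548705 to 104549496). That of C8b lay in hotspots of 833 bp (104438513 to 104439345), 626 bp (104438570 to 104439195) and 780 bp (104438540 to 104439319) in the same order. At both genes Benzonase gave the widest and Cyanase the narrowest hotspot.

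C9 encodes the protein that polymerizes to line the pore. The Benzonase hotspot over its TSS was 1350 bp wide (6394365 to 6395714 on chromosome 15) and the DNase I hotspot 1785 bp (6394318 to 6396102). Cyanase gave 2 hotspots over the same stretch, of 397 bp (6394437 to 6394833) and 691 bp (6394973 to 6395663), and the second held the TSS. Over the 8 genes with hotspots of all 3 nucleases, the Cyanase hotspot was the narrowest at 5 and the widest at 0, while the Benzonase and the DNase I hotspot were each the widest at 4.

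**Figure D1:**
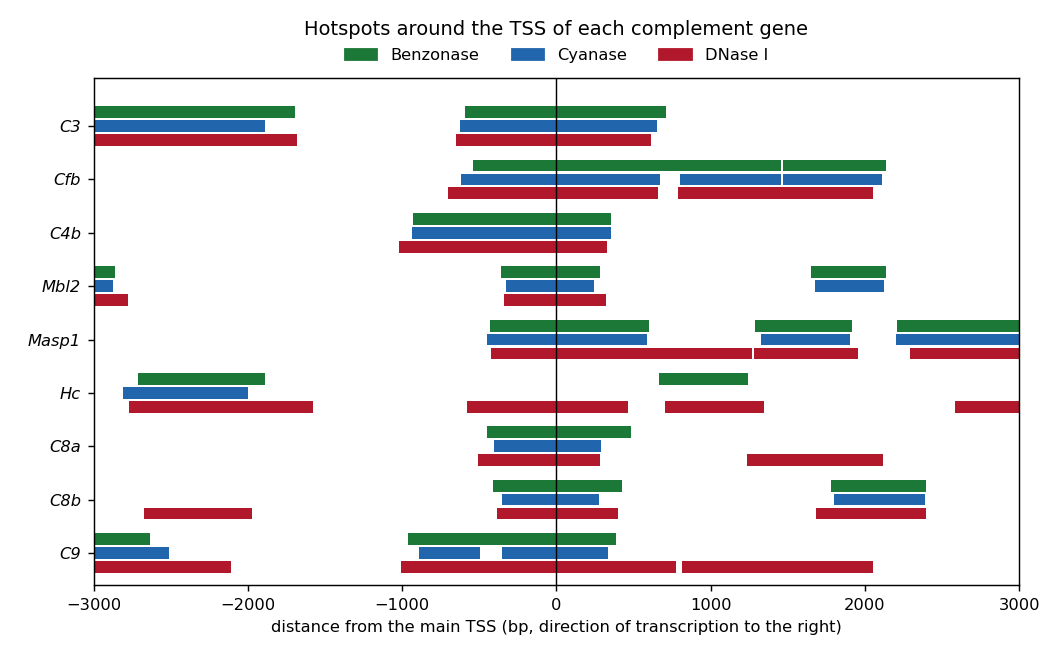
Hotspots within 3000 bp of the main TSS of each complement gene, with the distance from the TSS in bp on the x axis, transcription to the right, 1 row per gene and 1 bar per hotspot, coloured by nuclease. Bars of all 3 colours cross the TSS line at 8 genes, and at Hc only the DNase I bar of 1046 bp does.

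Over all protein-coding genes, hotspots over a TSS were wider for Benzonase (median 1202 bp) and Cyanase (1118 bp) than for DNase I (828.0 bp). At the complement genes DNase I hotspots had the widest median instead, and the medians were 1158 bp for Benzonase (8 genes, 639 to 1997 bp), 868.5 bp for Cyanase (8 genes, 571 to 1292 bp) and 1262 bp for DNase I (9 genes, 656 to 1785 bp). The ranges of the 3 nucleases overlapped, and with 1 list per nuclease the differences have no error between replicates.

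In GC content, 7 of the 9 complement promoters lay below the median of all genes. The 250 bases before the main TSS had a median GC content of 49.2% over the 9 genes, from 32.8% at Hc to 56.4% at Masp1, beside 54.8% (quartiles 46.4 and 63.6) over all protein-coding genes. They held a median of 3 CpG dinucleotides beside 9 over all genes, and the C9 promoter held 0. Across the genome, promoters of the 194 genes whose TSS was marked by DNase I alone had a median GC content of 43.4%, those marked by all 3 nucleases 59.6%, and those marked by Benzonase or Cyanase without DNase I 62.4%. The median was 46.8% both for unmarked genes and for genes marked by DNase I and 1 other nuclease. Hc is one of the 194 genes, and its value lay below their lower quartile of 38.8%. Promoters with a GC content at or below that of Hc were 5.67% of those marked by DNase I alone. They were 0.320% of those marked by all 3. C8a, at 39.6%, and C9, at 38.0%, were marked by all 3 nucleases. Whether GC content has a part in the marking of these promoters was not tested.

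Of 8 motifs searched on both strands of these 250 bases, each as an exact string in which N is any base, 5 had a match at a complement gene. The C/EBP string TTGCNNAA, after factors of the acute phase response, was found at C3 (from 45 bp before the TSS) and C9 (from 113 bp), and in 9.02% of all promoters of this length. The HNF1 half-site string GTTAAT, after a hepatocyte factor, was found at Hc (from 48 bp), C8a (from 122 bp) and C8b (from 206 bp). It was present in 5.51% of all promoters. All 3 genes with this string encode terminal proteins, while C9, also a terminal gene, lacks it. The STAT string TTCNNNGAA, read by factors downstream of cytokine receptors, was found at Cfb (from 47 bp) and C8a (from 243 bp), and in 6.77% of promoters. Cfb also held the NF-kB string GGNNTTTCC from 135 bp, inside the last exon of C2 and so not printed above, which 4.87% of promoters hold. TATAAA was found at Hc (from 213 bp) and in 12.3% of promoters. The strings for HNF4 (CAAAGTNCA, 1.22% of promoters), FOXA (TGTTTAC, 2.63%) and the GC box (GGGCGG, 40.9%) matched at none of the 9. A match describes these letters only, and the strings do not overlap each other within a promoter.

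Hotspots were denser in the windows of most of the complement genes than at the median gene, those over TSSs and over promoters of neighbours included. Per 100 kb of window, 7 of the 9 genes lay above the median of all protein-coding genes for every nuclease, which was 3.83 hotspots for Benzonase, 3.61 for Cyanase and 4.24 for DNase I. The exceptions were Hc, with 3.39 for both Benzonase and Cyanase, and C9, with 3.21 for Benzonase. For DNase I all 9 genes lay above the median. C4b and Hc lay below the upper quartile of all genes for Benzonase (7.34) and Cyanase (7.06). C9 lay below it for these and for DNase I (8.16).

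**Figure D2:**
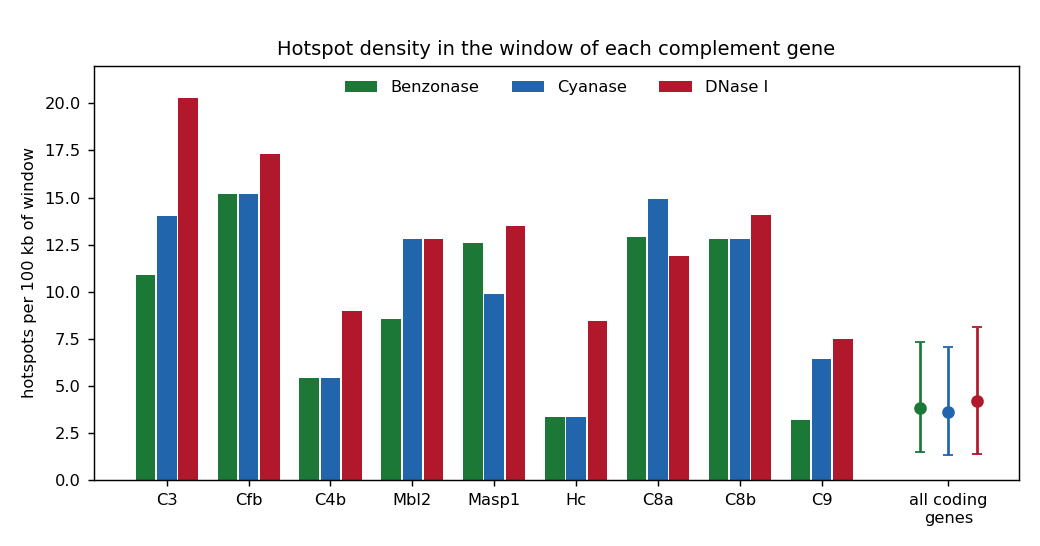
Hotspots per 100 kb of window (y axis) for each complement gene and nuclease (bars), beside the median and quartiles over 22365 protein-coding genes (points with error bars). DNase I reached 20.3 at C3, while Benzonase and Cyanase at Hc stood at 3.39, close to the medians of all genes.

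C3 had 13 DNase I hotspots in a window of 64.2 kb, 20.3 per 100 kb, a density above that of 98.5% of genes. Benzonase gave 7 and Cyanase 9 hotspots there, or 10.9 and 14.0 per 100 kb. The nucleases separated by side of the gene. Over and before the TSS, 6 of 8 regions were common, meaning that DNase I and at least 1 of the other nucleases called them, and all 6 were called by all 3. From 3′ of the TSS onward, 0 of 7 regions was common. There, Cyanase alone gave hotspots of 316 bp over exon 9 and 251 bp over exon 25, and DNase I alone gave 5 regions, of which 1 was intronic, 1 lay over exon 41, the last exon, and 3 lay downstream. The widest of these, and the widest DNase I unique region of all windows, spanned 1421 bp from 57334168 to 57335588, and the widest Benzonase-Cyanase unique region was the 316 bp hotspot over exon 9 (57363730 to 57364045). The widest region of C3, 3990 bp from 57386320 to 57390309 at the 5′ edge of the window, covers the promoters of the neighbouring genes Gpr108 and Trip10.

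Cfb differed from C3 in that all 6 of its regions were common, 5 of them to all 3 nucleases, so it had no unique region. Benzonase and Cyanase each gave 7 hotspots (15.2 per 100 kb) and DNase I gave 8 (17.3 per 100 kb). Of the regions away from its TSS, 3 lie over promoters of neighbours in this gene-dense stretch, C2 with Gm20547, Rdbp with Skiv2l, and Dom3z with Stk19. The remaining 2, at 34991623 to 34992231 and 34990382 to 34990972, cover no coding TSS, and Cyanase gave no hotspot at the first. The widest region was the 2835 bp region over the TSS.

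C4b had the fewest regions with Cfb, 6, and no hotspot of any nuclease upstream of the one over its TSS. Benzonase and Cyanase gave 3 hotspots each (5.41 per 100 kb) and DNase I 5 (9.01 per 100 kb). Near the 3′ end, the lists changed over short distances. A Benzonase-Cyanase unique region of 614 bp (34866111 to 34866724) covered exons 37 to 39, a common region of 951 bp (34864659 to 34865609) covered the last exon, 41, and a DNase I unique region of 414 bp followed 60 bp later. The widest DNase I unique region was 589 bp, from 34859537 to 34860125. Of the 31-base stretches in the C4b window, 47.2% occur elsewhere in the genome.

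At Mbl2, 2 regions upstream of the gene were called by all 3 nucleases besides the one at the TSS. They spanned 876 bp from 30303768 to 30304643, the widest region of the gene, and 715 bp from 30297013 to 30297727. Exon 4 lay in a region of 485 bp (30309071 to 30309555) that Benzonase and Cyanase called and DNase I did not, and the widest DNase I unique region, 592 bp (30315896 to 30316487), lay downstream. This DNase I unique region was 31.4% GC and the exonic one 52.6%. The window held 4 Benzonase, 6 Cyanase and 6 DNase I hotspots, or 8.55, 12.8 and 12.8 per 100 kb.

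Masp1 had the most regions, 17, with 14 Benzonase, 11 Cyanase and 15 DNase I hotspots, or 12.6, 9.89 and 13.5 per 100 kb. Common regions were 12 of the 17, and 11 were called by all 3. Of the common regions, 10 lay between the TSS and a region of 701 bp over exon 3 (23496191 to 23496891), in a row through the first introns, and the other 2 lay in a later intron and downstream. The widest region was the one over the TSS (23519408 to 23521129, 1722 bp), the widest DNase I unique region 850 bp (23500282 to 23501131) and the widest Benzonase-Cyanase unique region 443 bp (23464839 to 23465281), which Benzonase alone called. The latter was 52.6% GC and the DNase I unique one 42.7%.

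Hc had 10 DNase I hotspots beside 4 of Benzonase and 4 of Cyanase, or 8.47, 3.39 and 3.39 per 100 kb. Of its 12 regions, 6 were DNase I unique, 4 were common, 2 were Benzonase-Cyanase unique, and 1 was called by all 3. That region, the widest of the gene, spanned 1232 bp from 34918535 to 34919766, upstream of the TSS. The widest DNase I unique region was the one over the TSS, and DNase I alone also gave regions of 903 and 816 bp downstream of the gene. The widest Benzonase-Cyanase unique region was intronic and 594 bp wide (34904309 to 34904902). The GC content of these regions was 40.7% in the common, 42.1% in the DNase I unique and 47.5% in the Benzonase-Cyanase unique one. No region lay in the gene between the last of these and its 3′ end.

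At C8a, Cyanase gave the most hotspots, 15 (14.9 per 100 kb), with 13 for Benzonase (12.9) and 12 for DNase I (11.9), and it was the only one of the 9 genes with fewer DNase I hotspots than hotspots of each other nuclease. Its 4 Benzonase-Cyanase unique regions were each called by both enzymes, and the widest of them, 695 bp from 104564238 to 104564932 upstream of the gene, was the widest of all windows. The widest region was common and intronic, 1649 bp from 104510624 to 104512272, and the widest DNase I unique region spanned 886 bp from 104546869 to 104547754 in an intron. C8b had 10 Benzonase, 10 Cyanase and 11 DNase I hotspots (12.8, 12.8 and 14.1 per 100 kb), and 9 of its 12 regions were called by all 3. The windows of C8a and C8b overlap, and 7 regions around their facing 3′ ends were counted for both genes and once in totals. These include the widest region of C8b, 1391 bp from 104497044 to 104498434, and its widest Benzonase-Cyanase unique region, 479 bp from 104495221 to 104495699. Its widest DNase I unique region, 701 bp from 104436248 to 104436948, lay before the TSS.

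C9 had 3 Benzonase, 6 Cyanase and 7 DNase I hotspots (3.21, 6.42 and 7.49 per 100 kb). The widest region lay over the TSS (6394318 to 6396102, 1785 bp), and the widest DNase I unique region, 1242 bp from 6396140 to 6397381, followed it in the first intron 37 bp later. At a region upstream of the gene (6387976 to 6389252), 1 DNase I hotspot bridged a Cyanase hotspot of 326 bp and a Benzonase hotspot of 380 bp that did not overlap each other. The widest Benzonase-Cyanase unique region was a Cyanase hotspot of 555 bp (6385638 to 6386192). At 4 of its 8 regions, DNase I gave a hotspot and Benzonase gave none.

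**Figure D3:**
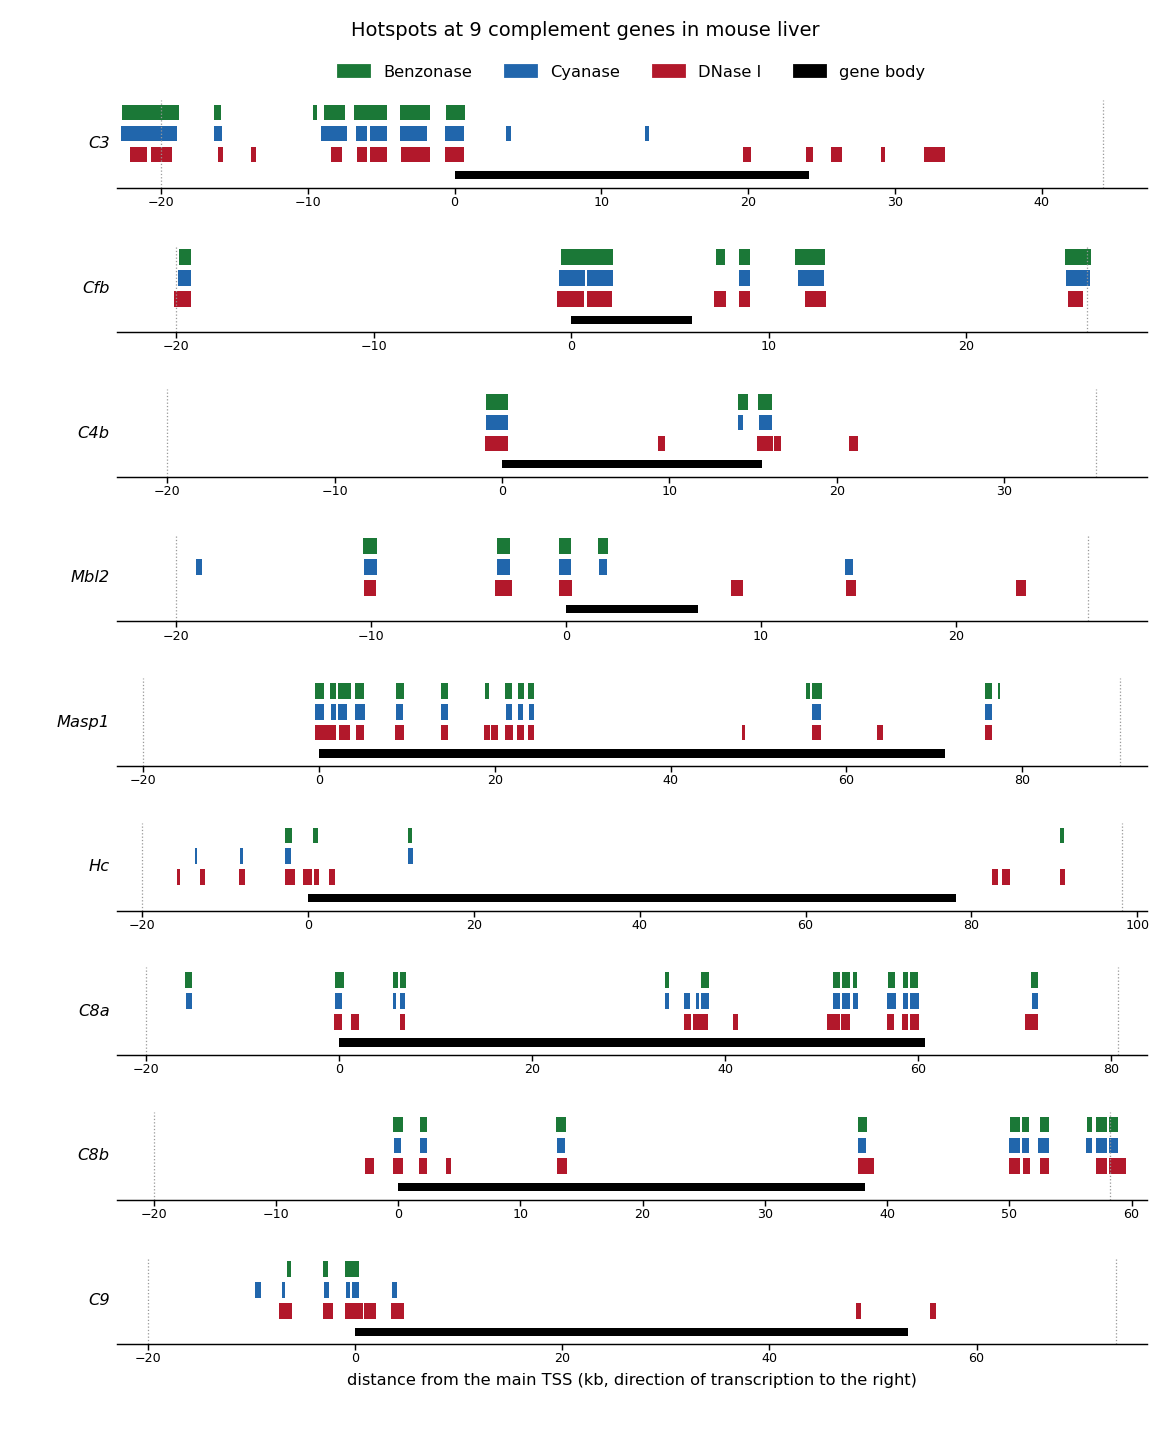
Hotspots of each nuclease (coloured bars) at the 9 complement genes, by distance from the main TSS in kb on the x axis, with the gene body in black and the ends of the window as dotted lines; a region that crosses a window's end is drawn whole. Masp1 shows a row of hotspots of all 3 nucleases through its first introns, and C3 shows only DNase I hotspots downstream of the gene.

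Counted over all windows, 51 of the 93 regions were common (54.8%, 95% Wilson interval 44.7 to 64.6), beside 45.4% of all regions of the series. DNase I unique regions were 27 (29.0%, 20.8 to 38.9) beside 28.3%, and Benzonase-Cyanase unique regions were 15 (16.1%, 10 to 24.9) beside 26.3%. The intervals cover counting error only and treat regions as independent. Neighbouring regions of a window may not be, so the intervals test no difference. The DNase I unique share was near that of the series, while the Benzonase-Cyanase unique share was lower in these lists. With an overlap of 50% of both hotspots the latter was 22.9% (15.9 to 31.8) beside 31.3%. Whether the share differs beyond the clustering of regions at 9 genes was not tested. The series also holds regions far from genes. Around all protein-coding genes the Benzonase-Cyanase unique share was 17.9% over TSSs, 25.4% in gene bodies, 22.7% upstream and 25.6% downstream. All 3 nucleases called 43 regions (46.2%, 36.5 to 56.3) beside 40.0% of the series. Benzonase alone called 3 regions (3.23%, 1.10 to 9.06) beside 9.31% of the series, and Cyanase alone 5 (5.38%, 2.32 to 12) beside 6.80%.

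**Figure D4:**
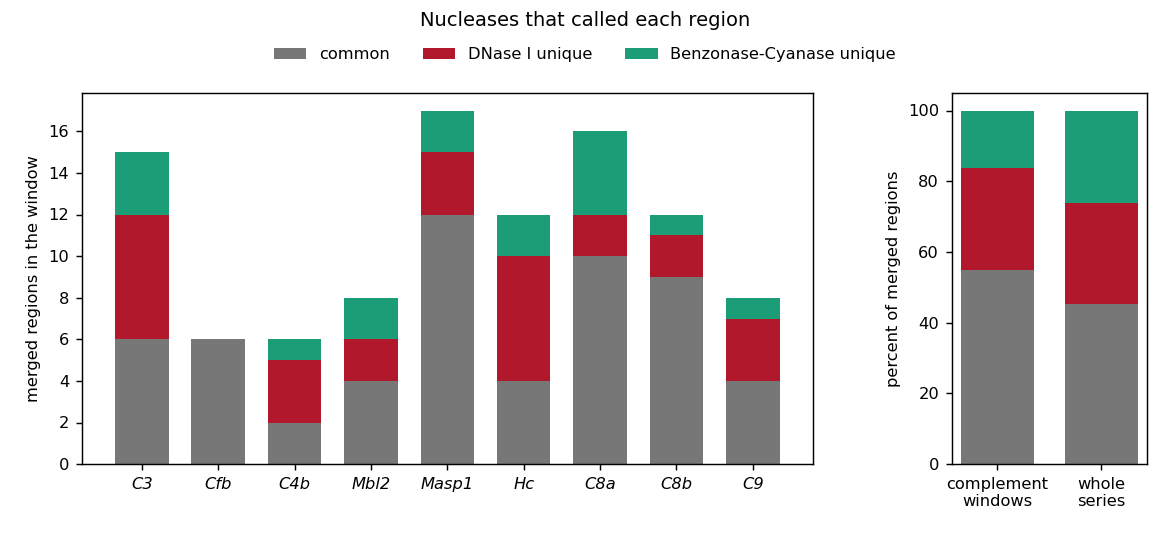
Merged regions in the window of each complement gene (left, number of regions) and their shares over all windows and over the whole series (right, percent), split by the nucleases that called them. Cfb has 6 common regions and no other, Hc and C3 have 6 DNase I unique regions each, and the Benzonase-Cyanase unique share is 16.1% in the windows and 26.3% in the series.

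By place in the gene, common regions were 8 of 9 over TSSs, 24 of 45 in gene bodies (5 of 11 over exons and 19 of 34 in introns), 12 of 21 upstream and 7 of 18 downstream. Around all protein-coding genes the shares of common regions were 80.4%, 43.1%, 52.7% and 54.4%, so the counts over TSSs and upstream were near these. The shares around all genes count a region once for each gene it lies near. In the complement windows each region was counted once, and the 7 shared by C8a and C8b went to gene bodies. Those 7 were common or Benzonase-Cyanase unique, so the downstream counts are not on the same basis as the shares. DNase I unique regions were 10 of 18 downstream and 4 of 21 upstream, beside 20.0% and 24.5% around all genes. The 10 downstream regions came from C3 (3), Hc (2), C4b (2), Mbl2 (2) and C9 (1). Benzonase-Cyanase unique regions were 9 of 45 in gene bodies, beside 25.4% around all genes, and the 4 of these that covered exons were at C3 (exons 9 and 25), C4b and Mbl2.

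Where hotspots of different nucleases overlapped one to one, their bounds mostly lay close together. The median difference of a bound was 29.00 bp for the 47 pairs of Benzonase and Cyanase, 57.50 bp for the 44 pairs of Benzonase and DNase I, and 60.50 bp for the 47 pairs of Cyanase and DNase I. The medians over the whole lists were 36, 74.00 and 72.00 bp. In the windows the largest differences were 399, 804 and 725 bp in the same order. Hotspots that overlapped more than 1 of the other list, such as the Benzonase hotspot over the Cfb TSS, were left out. The DNase I hotspot was the wider of the pair in 29 of 44 pairs with Benzonase (65.9%, 51.1 to 78.1) and in 35 of 47 pairs with Cyanase (74.5%, 60.5 to 84.7), beside 49.7% and 54.5% over the whole lists. The Cyanase hotspot was wider than the Benzonase hotspot in 15 of 47 pairs (31.9%, 20.4 to 46.2), beside 32.9%. Over all hotspots in the windows, the median width was 764.0 bp for DNase I beside 649.0 bp in its list, 715.0 bp for Benzonase beside 652.0 bp, and 642.5 bp for Cyanase beside 641.0 bp.

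The mean GC content of the classes in the windows followed the order found over the series. The mean GC content was 52.9% ± 5.21 (SD, n = 15) in Benzonase-Cyanase unique regions, in common regions 47.8% ± 5.54 (n = 51) and in DNase I unique regions 44.8% ± 4.82 (n = 27), beside 54.7%, 49.5% and 42.3% over all regions of each class. The ranges of the classes overlapped. Against the 5 kb on either side, all 15 Benzonase-Cyanase unique regions were richer in GC, by 6.94 percentage points on average, whereas 32 of 51 common regions and 11 of 27 DNase I unique regions were. Over the series these shares were 95.6%, 77.0% and 44.8%. The mean difference between DNase I unique regions and flanks was -0.826 percentage points, smaller in size than its SD of 4.18.

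**Figure D5:**
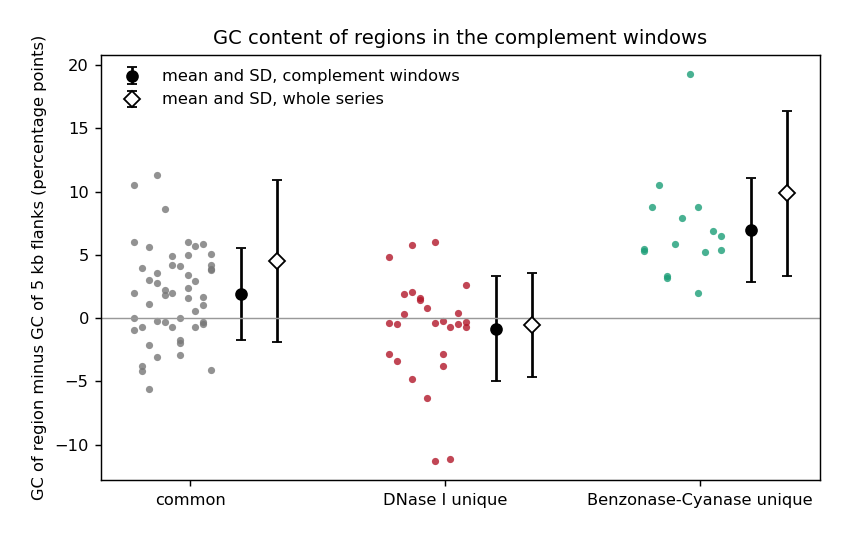
GC content of each region in the complement windows minus that of the 5 kb on either side (y axis, percentage points), by class, with the mean and SD over these regions (filled circles) and over all regions of the series (open diamonds). All 15 Benzonase-Cyanase unique regions lie above 0, and DNase I unique regions scatter around it.

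Among 31 other complement genes, 18 had a TSS inside hotspots of all 3 nucleases. Benzonase marked 22, Cyanase 21 and DNase I 20, and 0 were marked by DNase I alone. Over all protein-coding genes the shares in the same order were 46.1%, 57.4%, 55.7%, 47.4% and 0.867%. At 0.867%, a count of 0 among 31 genes does not set them apart. All 5 soluble inhibitors examined, among them the plasma proteins factor I (Cfi), C1 inhibitor (Serping1) and vitronectin (Vtn), were marked by all 3, as were the terminal genes C6 and C8g. The 5 receptors, Cr2, C3ar1, C5ar1, Itgam and Itgax, which are mainly carried by white blood cells, were marked by none, nor were C7, Cfd and Cfp. Of the 10 recognition and initiation genes, 6 were marked by all 3, namely C1qb, C1qc, C1ra, C1s, Mbl1 and Masp2. C1qa was marked by Cyanase and DNase I, and Fcna by Benzonase and DNase I. Colec11 was marked by Benzonase and Cyanase, and Colec10 by Benzonase alone.

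To check the tissue, genes that mark liver cell types were scored in the same way. Over all protein-coding genes, all 3 nucleases marked 46.1%, Benzonase 57.4%, Cyanase 55.7%, DNase I 47.4% and DNase I alone 0.867%. All 7 hepatocyte genes, among them Alb and Apob, were marked by all 3 nucleases. The 4 Kupffer cell genes were marked by DNase I in 4 cases, by Cyanase in 1 and by Benzonase in 0. Cd68, Marco and Timd4 were marked by DNase I alone, and Clec4f by Cyanase and DNase I. The stellate cell genes were marked by Benzonase in 2 of 3 cases, by Cyanase in 3 and by DNase I in 0, the 3 sinusoidal endothelial genes by none, and the 3 bile duct genes by Benzonase in 2 cases and by the others in 1. Of 6 genes of tissues other than liver, Gfap was marked by Cyanase and the others by none. The part of these cell types in the hotspots of the complement genes was not tested.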

How the data were processed

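Digested chromatin of mouse liver was sequenced by the study's authors, who used Eland or Bowtie for the alignment to mm9 and called hotspots on tags pooled by nuclease, with the false discovery rate set to 0%. The deposited lists, 1 per nuclease and described in their headers as input adjusted and unmerged, hold no signal, score or count, only positions, and were read as BED with starts counted from 0. Printed coordinates count from 1. There were 0 columns of other samples. In the Cyanase list, 2 hotspots end past their chromosome. Each list holds more hotspots than the study reported for that nuclease with pooled tags. The counts and class shares given here are therefore not the published ones.

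Genes came from GENCODE M1 on NCBIM37. The main TSS is that of the protein-coding transcript with the longest coding sequence, and windows reached 20 kb past the gene. Lists were merged at an overlap of 1 bp. No test across samples was possible, since each list is pooled, so counts are given beside those over all genes or regions, with 95% Wilson intervals. Pairs for bounds are hotspots that overlap 1 hotspot each. All 9 genes are named, with the widest region of each class per gene, and neighbours only where a region covers their promoter. In the list of other complement genes, 1 gene is not reported here. Members, gene lists and motifs were chosen with earlier results of these data known, and the check for repeated 31-base stretches, over the whole genome on both strands, was added after the values were seen. Merging and motif search were tested on simulated data, where all 6000 regions and all 400 planted motifs were recovered. Python 3.11.15, numpy 2.4.6, scipy 1.17.1, pysam 0.24.0, numba 0.67.0, matplotlib 3.10.9 and samtools 1.23.1 were used. Alternatives were other windows, overlap rules, width limits, TSS sets and promoter lengths.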

Additional observations from a re-analysis of the deposited data

How the results depend on the processing

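Of the 65 values recomputed under alternatives, 60 stayed within 1.5 times the count, within the interval, or within 1 SD of the value given above, and 5 did not. The limit was loose for GC, where 1 SD exceeded the gap between the means of common and DNase I unique regions. Without the 20 kb on either side, the gene bodies alone held 38 Benzonase, 41 Cyanase and 47 DNase I hotspots, fewer by the construction of the alternative. Without hotspots narrower than the lower quartile of their list, the Benzonase-Cyanase unique share of regions was 9.59% (20.8% in the series). With 500 bases before the TSS, TATAAA was found at 2 genes, the added one being Masp1. The TSS counts were the same under each alternative run for them, with Hc not called by Benzonase or Cyanase in any. The width limit and the reach of 500 bp could not have changed these counts. No paired analysis was possible because the tags of the 3 concentrations of Benzonase and of Cyanase, 1 sample each, were pooled before hotspots were called, and for the same reason no sample could be left out. Tag density per hotspot was not analysed here, so a hotspot missing from a list cannot be told apart from one just under the calling threshold. At C4b, 47.3% of 31-base stretches of the gene recur in the genome, and their effect on the lists was not tested.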
